A study of Mus musculus with 6 samples.

Results

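Cholesterol is made from acetyl-CoA by a chain of enzymes, and 9 of them were followed here, chosen by name: *Hmgcs1*, *Mvd*, *Idi1*, *Fdps*, *Fdft1*, *Sqle*, *Lss*, *Cyp51* and *Dhcr7*. They are 9 of the 17854 genes measured, and all 9 passed the expression filter that 14289 genes passed. The samples were 3 RNA sequencing libraries of Tomato+ cells that the paper describes as derived from injected MSCs (mesenchymal stromal cells). They were set beside 3 libraries of endogenous Tomato+ cells of the knee articular cartilage. All were from male C57BL/6 mice, with 3 mice for each group. Tomato+ cells carry a red fluorescent protein that Cre under the control of *Prrx1*, a gene of limb mesenchyme, switches on permanently, so that all progeny keep the label. The MSC-derived cells came from mice that were given surgery on the anterior cruciate ligament at 8 weeks of age to cause osteoarthritis (OA). These mice then received *Prrx1*-lineage MSCs of inguinal white fat from *Prrx1-Cre; R26 tdTomato* donors by injection into the joint, and Tomato+ cells were sorted from their repaired cartilage. The endogenous cells came from the cartilage of *Prrx1-Cre; R26 tdTomato* mice matched for age and sex, for which no surgery or injection is stated. Host genotype, OA, injection and the tissue of origin thus differ together with the group and cannot be told apart. The time of harvest for sequencing is not given in the sources used here.

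HMG-CoA synthase, encoded by *Hmgcs1*, acts near the start of the route, ahead of mevalonate. Mevalonate is then phosphorylated and decarboxylated to isoprene units, which are joined to farnesyl diphosphate and squalene, closed to the ring of lanosterol, and trimmed to cholesterol. When sterols in the endoplasmic reticulum are low, SCAP escorts the transcription factor SREBP2 to the Golgi, where it is cut and released to switch on most genes of the route. When sterols are plentiful, INSIG proteins hold SCAP back, and oxysterols activate LXR, which switches on genes of cholesterol export. In cartilage, chondrocytes both make cholesterol and take it up.

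SREBP2 acts at sterol regulatory elements, often with the factors NF-Y and Sp1 bound close by, so the bases in front of the start site were searched for their core letters. The RefSeq windows of GRCm38.p6 (250 bases before to 50 after the start) held 6 of the 9 enzymes, without *Fdps*, *Fdft1* and *Sqle*. The letters TCACNCCA, a core of the sterol regulatory element, were found on either strand in 4.36% of the 32851 windows of all genes and in 1 of the 6 enzymes, *Hmgcs1*, where they began 137 bases before the start. The NF-Y letters CCAAT were in 37.4% of all windows and the Sp1 letters GGGCGG in 35.7%. Both were in all 6 enzymes, although *Dhcr7* had CCAAT only in the window of a later start site. An enzyme counted if any of its windows held the letters, whereas the percentages count single windows, so the 2 are not like for like. The 250 bases before the start are printed for *Hmgcs1* and *Idi1*, which were lower in the MSC-derived cells, and for *Mvd*, which was higher. Of these 3 only *Hmgcs1* held the sterol regulatory element core. Capitals mark the 3 motifs, where ATTGG and CCGCCC are CCAAT and GGGCGG on the other strand. The windows lie at chr13:119690101-119690350 on the plus strand for *Hmgcs1*, chr13:8885356-8885605 on the plus strand for *Idi1* and chr8:122443423-122443672 on the minus strand for *Mvd*.
Hmgcs1: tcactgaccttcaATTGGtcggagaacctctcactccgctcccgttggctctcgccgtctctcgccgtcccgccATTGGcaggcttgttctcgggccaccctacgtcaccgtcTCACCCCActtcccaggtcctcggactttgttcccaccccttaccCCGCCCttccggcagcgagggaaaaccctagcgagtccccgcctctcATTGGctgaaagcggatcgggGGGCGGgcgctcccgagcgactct
Idi1: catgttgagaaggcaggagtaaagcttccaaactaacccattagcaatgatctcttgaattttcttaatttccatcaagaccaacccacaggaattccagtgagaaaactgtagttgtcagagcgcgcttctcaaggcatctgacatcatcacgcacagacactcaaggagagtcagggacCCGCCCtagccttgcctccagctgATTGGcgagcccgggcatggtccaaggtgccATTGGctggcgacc
Mvd: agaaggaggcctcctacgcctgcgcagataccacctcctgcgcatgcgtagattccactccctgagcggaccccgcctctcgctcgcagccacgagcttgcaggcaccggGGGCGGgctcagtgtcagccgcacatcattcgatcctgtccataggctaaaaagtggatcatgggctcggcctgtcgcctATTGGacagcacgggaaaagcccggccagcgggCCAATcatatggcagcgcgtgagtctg
All 3 stretches held CCAAT and GGGCGG on one strand or the other, and these are matches of letters, not measured binding sites.

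The libraries held 22060628 to 24881796 expected counts, and 3 counts, taken as the floor, stood for 0.121 to 0.136 CPM (counts relative to the library total, a floor that covers counting error only). Levels of a gene across libraries are given as CPM scaled by edgeR's TMM factors, and levels of different genes as FPKM, which also divides by transcript length. Spearman correlations were at least 0.995 between MSC-derived libraries, 0.955 to 0.995 between endogenous ones and 0.698 to 0.739 between groups. Endogenous replicate 1 stood apart, with 3459 genes at 0 against 1338 and 1395 in the other two, so the fold changes of the 9 enzymes and the counts of the gene lists are also given without it. Without it, 37.8% of the genes tested were called higher and 38.6% lower, more than with all 6 libraries. The labels call all the cells chondrocytes. All 10 chondrocyte markers were lower in the MSC-derived libraries, where they summed to 6306 to 6522 scaled CPM against 58858 to 59113 in the endogenous libraries, and *Col2a1*, the main cartilage collagen, had 435.0 to 468.6 scaled CPM against 34850 to 35670. All leukocyte, macrophage, neutrophil and erythroid markers followed were higher in the MSC-derived libraries. The neutrophil markers, for example, summed to 44048 to 46112 scaled CPM in the MSC-derived and 2108 to 3005 in the endogenous libraries. The libraries are therefore called MSC-derived and endogenous Tomato+ cells here, not chondrocytes. The name MSC-derived follows the paper's account, and the descent of these cells was not tested.

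Of the 9 cholesterol synthesis enzymes, edgeR's quasi-likelihood test called 7 lower and 2 higher in the MSC-derived Tomato+ cells, with 0.05 as the limit of the adjusted p. Over all genes tested, 30.3% were called lower and 31.3% higher (4333 and 4468 genes). The fall was steepest for *Sqle*, *Hmgcs1* and *Cyp51*, at 7.55-fold, 4.43-fold and 3.59-fold, and *Mvd* and *Dhcr7* were the enzymes that rose, by 2.06-fold and 1.52-fold. The median log2 fold change of the 9 was -1.62, beside 0.05 for all genes tested. In none of the 9 did the values of the groups overlap, with the MSC-derived libraries above for 2 and the endogenous libraries above for 7, where 38.2% and 34.1% of all genes were apart in these directions. In bulk RNA, fewer cells of a type and less RNA per cell cannot be told apart.

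**Figure D1:**
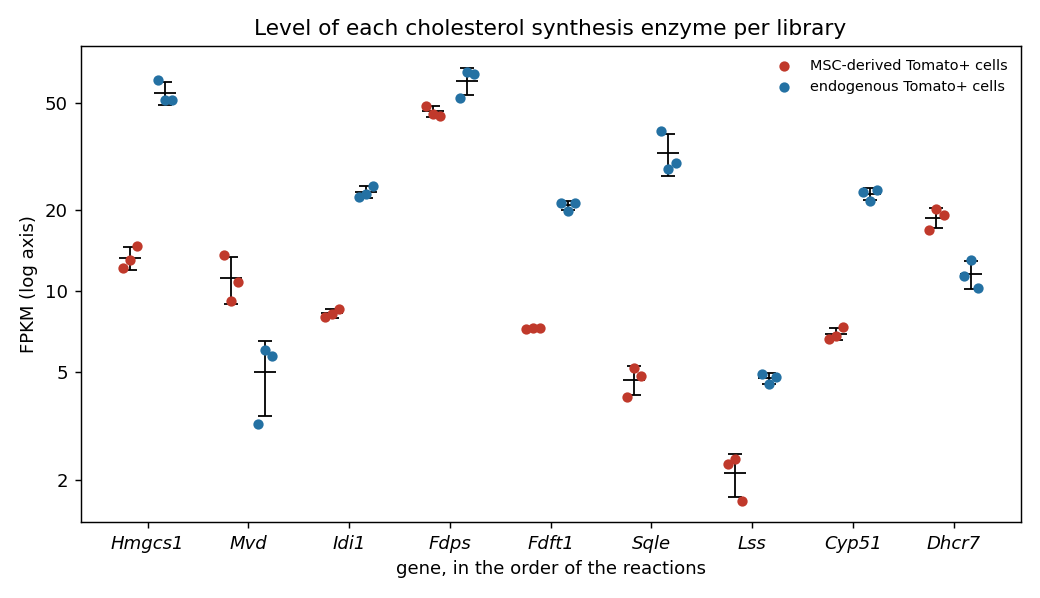
FPKM of each enzyme in each library (log axis), in the order of the reactions, with MSC-derived Tomato+ cells in red and endogenous ones in blue, and with black lines for the mean and SD of 3 libraries. The blue points lie above the red ones for 7 enzymes and below them for *Mvd* and *Dhcr7*.

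The 9 enzymes together took 146.1 to 148.2 TPM (each gene's share of a library's transcripts, after division by length) in the MSC-derived libraries and 408.2 to 474.1 TPM in the endogenous libraries, a ratio of the means of 0.341. In scaled CPM the sums were 234.3 to 245.6 and 610.7 to 656.8, a ratio of 0.381. The groups were thus apart on both scales, and the MSC-derived libraries differed less among themselves than the endogenous ones.

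Among the enzymes that make isoprene units, *Hmgcs1* encodes the cytosolic synthase that condenses acetoacetyl-CoA with acetyl-CoA. *Hmgcs1* had 39.0, 41.8 and 47.3 scaled CPM in MSC-derived replicates 1 to 3 and 210.6, 179.1 and 177.3 scaled CPM in endogenous replicates 1 to 3. Every endogenous library lay well above every MSC-derived one. The log2 fold change was -2.15 (SE 0.11, adjusted p = 2.70e-06).

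*Mvd* encodes mevalonate diphosphate decarboxylase, which makes isopentenyl diphosphate, and it moved the other way. Its scaled CPM were 20.5, 13.9 and 16.5 in the MSC-derived libraries and 5.29, 9.99 and 9.46 in the endogenous libraries. The groups did not overlap, but the lowest MSC-derived and the highest endogenous library were close, and endogenous replicate 1 was the lowest of all. The log2 fold change was 1.04 (SE 0.28, adjusted p = 0.0137), with the largest standard error of the 9. Without MSC-derived replicate 1, the highest library, it was 0.89 with an adjusted p of 0.0598 and was no longer called.

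*Idi1* encodes the isomerase that turns isopentenyl into dimethylallyl diphosphate. Its levels were 20.6, 21.2 and 22.3 scaled CPM in the MSC-derived libraries and 62.3, 65.1 and 69.0 in the endogenous libraries. The libraries of each group lay close together, and the log2 fold change was -1.62 (SE 0.10, adjusted p = 5.20e-06).

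*Fdps* encodes farnesyl diphosphate synthase, which joins these units and is the target of nitrogen-containing bisphosphonates. It had 50.001, 47.3 and 46.7 scaled CPM in the MSC-derived and 58.8, 74.3 and 71.9 scaled CPM in the endogenous libraries. The gap between the groups was narrow at endogenous replicate 1, and the decrease was the smallest of the 7, with a log2 fold change of -0.51 (SE 0.11, adjusted p = 0.00558). *Idi1* and *Fdps* catalyse successive steps, yet the fold changes were 3.06-fold and 1.42-fold.

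Of the enzymes that commit carbon to sterols, *Fdft1* encodes squalene synthase, which joins farnesyl units at the branch point from the other isoprenoids. Its levels were 19.7, 19.9 and 20.1 scaled CPM in the MSC-derived libraries and 62.3, 58.9 and 62.4 in the endogenous libraries. This was the tightest of the 9 genes, with a coefficient of variation of 1.03% in the MSC-derived and 3.27% in the endogenous libraries. The log2 fold change was -1.62 (SE 0.09, adjusted p = 3.95e-06). In RefSeq *Fdft1* overlaps *Ctsb*, the cathepsin B gene, which had a log2 fold change of 3.53 (SE 0.10), and the library kit named in the labels does not mark the strand, so the *Fdft1* level is less certain.

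*Sqle* encodes squalene epoxidase, which adds the oxygen needed for ring closure and is a further control point of the route. *Sqle* had 9.97, 12.8 and 11.98 scaled CPM in the MSC-derived libraries and 104.8, 76.8 and 80.2 scaled CPM in the endogenous libraries. Endogenous replicate 1 was the highest library, and even the lowest endogenous library was far above the MSC-derived ones. The log2 fold change of -2.92 (SE 0.17, adjusted p = 4.04e-06) was the most negative of the 9.

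*Lss* encodes lanosterol synthase, which closes the rings. Its levels were 11.1, 10.6 and 8.26 scaled CPM in the MSC-derived and 24.4, 21.3 and 20.5 scaled CPM in the endogenous libraries. The groups were apart, and *Lss* fell by 1.14 on the log2 scale (SE 0.17, adjusted p = 0.000749).

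Past lanosterol, *Cyp51* encodes the demethylase that removes the first methyl group. *Cyp51* had 26.5, 27.3 and 29.6 scaled CPM in the MSC-derived libraries and 101.1, 94.8 and 103.2 scaled CPM in the endogenous libraries. The groups were far apart beside their small spread, with a log2 fold change of -1.84 (SE 0.09, adjusted p = 1.92e-06).

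*Dhcr7* encodes the reductase of 7-dehydrocholesterol, whose substrate is also the precursor of vitamin D. Its levels were 36.9, 44.3 and 42.8 scaled CPM in the MSC-derived libraries and 27.2, 30.3 and 24.1 in the endogenous libraries. All MSC-derived libraries were above all endogenous ones, with a log2 fold change of 0.60 (SE 0.13, adjusted p = 0.00514). On the TPM scale, chosen after the data were seen, the log2 fold change was 0.13 and was not called (adjusted p = 0.397 in limma on log2(TPM + 1)). The median of all genes was -0.33 in that fit, which called 22.6% of its genes higher and 43.2% lower (3031 and 5792 of 13418), and *Mvd* stayed called there at 0.58 (adjusted p = 0.0484).

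Leaving out endogenous replicate 1, where *Hmgcs1*, *Sqle* and *Lss* were highest and *Mvd*, *Idi1* and *Fdps* lowest among the endogenous libraries, gave the same 7 lower and 2 higher enzymes. In that fit 38.6% of all genes were lower and 37.8% higher. The log2 fold changes were then -2.12 for *Hmgcs1*, -1.71 for *Idi1*, -0.66 for *Fdps*, -1.66 for *Fdft1*, -2.82 for *Sqle*, -1.12 for *Lss* and -1.89 for *Cyp51*. For *Mvd* and *Dhcr7* they were 0.75 and 0.55. Over the 18 alternatives with a fit of their own, all 162 values of the 9 enzymes kept their direction and 160 kept their call.

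**Figure D2:**
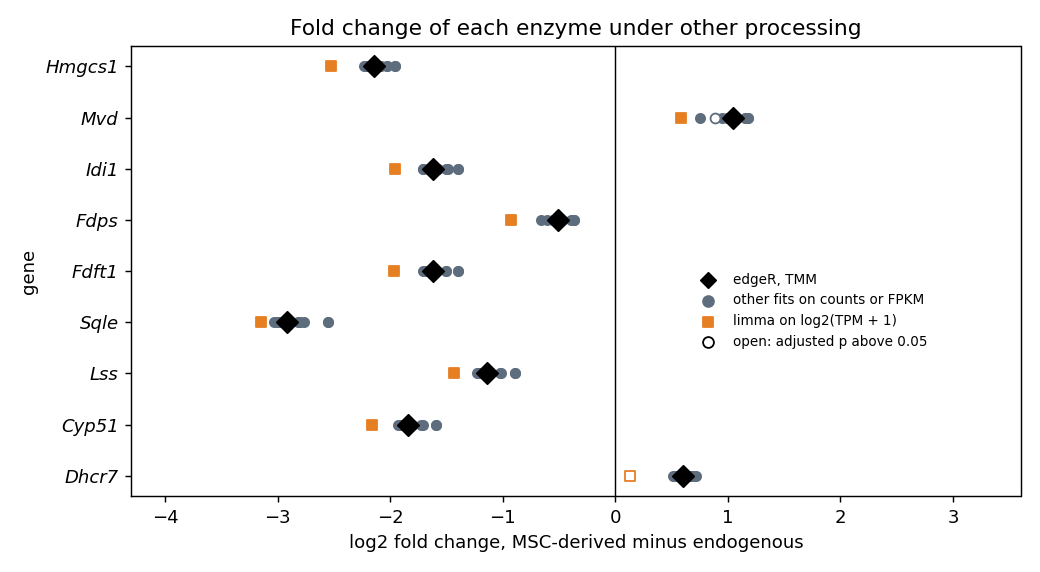
Log2 fold change of each enzyme, MSC-derived minus endogenous, in the edgeR fit (black diamonds), in the other fits on counts or FPKM, including those without 1 library (grey circles), and in limma on log2(TPM + 1) (orange squares). Open symbols have an adjusted p above 0.05 and are *Mvd* without MSC-derived replicate 1 and *Dhcr7* on the TPM scale, and no symbol lies on the other side of 0 from its diamond.

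Per transcript length, the order of the enzymes differed between the groups. In the MSC-derived cells *Fdps* was highest at 46.6 ± 2.14 FPKM (SD, n = 3), followed by *Dhcr7* at 18.8 ± 1.64, *Hmgcs1* at 13.3 ± 1.31, *Mvd* at 11.2 ± 2.21, *Idi1* at 8.29 ± 0.318, *Fdft1* at 7.27 ± 0.0458, *Cyp51* at 6.94 ± 0.373, *Sqle* at 4.70 ± 0.578 and *Lss* at 2.11 ± 0.384. In this order *Hmgcs1* and *Mvd* overlapped, as did *Fdft1* and *Cyp51*, and the other neighbours did not.

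In the endogenous cells *Fdps* had 60.6 ± 7.20 FPKM and *Hmgcs1* 54.6 ± 5.50 FPKM (SD, n = 3), and these levels overlapped. Below them came *Sqle* at 32.7 ± 5.90, then *Idi1* at 23.4 ± 1.18 and *Cyp51* at 23.0 ± 1.16, which overlapped, and *Fdft1* at 20.9 ± 0.774. *Dhcr7* had 11.6 ± 1.42 FPKM, and *Mvd* at 5.003 ± 1.55 and *Lss* at 4.75 ± 0.224 overlapped at the bottom. *Fdps* was thus highest and *Lss* lowest in both groups, whereas *Sqle* went from rank 3 to rank 8 and *Dhcr7* from rank 7 to rank 2.

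FPKM summed to 808701 to 813572 in the MSC-derived and 504768 to 573603 in the endogenous libraries, so ranks among all genes were also taken. By mean FPKM *Sqle* lay at percentile 43.4 of the genes in the MSC-derived cells and at percentile 85.0 in the endogenous cells. *Hmgcs1* lay at percentiles 65.2 and 90.6, and *Fdps* at 86.1 and 91.5. *Mvd* and *Dhcr7* stood higher in the MSC-derived cells, at percentiles 61.7 and 72.4 against 46.0 and 65.7.

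Ratios of enzymes within a library do not depend on how libraries are scaled, and they showed how uneven the difference was along the route. The ratio of *Mvd* to *Hmgcs1* FPKM was 1.12, 0.703 and 0.737 in the MSC-derived libraries and 0.0529, 0.117 and 0.112 in the endogenous libraries, a 9.06-fold difference of the means. The *Dhcr7* to *Cyp51* ratio was 2.56, 2.95 and 2.61 against 0.486, 0.606 and 0.432. *Dhcr7* was therefore the more abundant of the pair in every MSC-derived library and the less abundant in every endogenous one.

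The *Fdps* to *Idi1* ratio was 6.13, 5.56 and 5.21 against 2.34, 2.84 and 2.59, and the *Fdps* to *Sqle* ratio 12.1, 8.82 and 9.29 against 1.33, 2.30 and 2.13. *Fdft1* and *Idi1* instead kept nearly the same proportion, since their ratio of 0.847 to 0.903 in the MSC-derived libraries overlapped that of 0.864 to 0.947 in the endogenous libraries. These ratios are a description and share their libraries with the fold changes. The pairs that were apart set an enzyme that rose or fell little over one that fell more. Their large differences therefore follow from the fold changes given above.

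**Figure D3:**
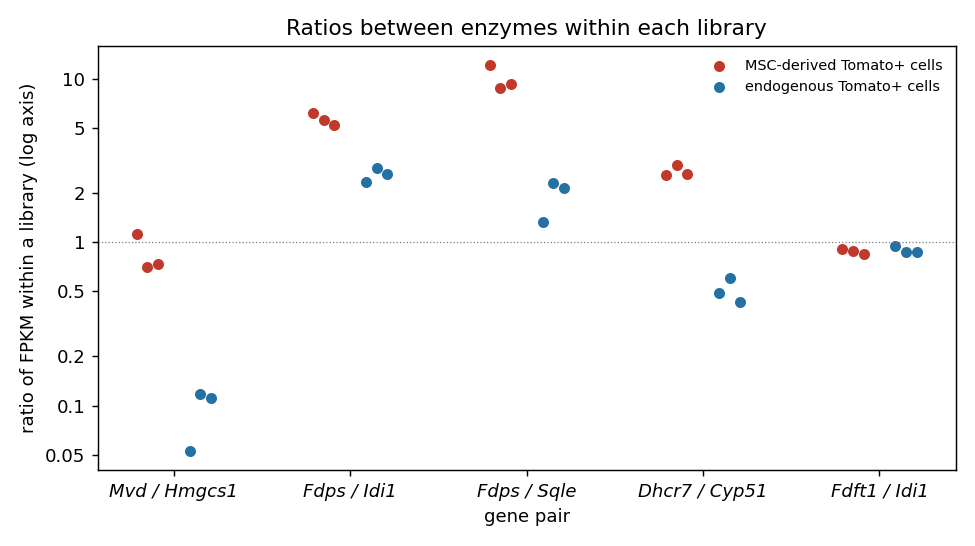
Ratio of the FPKM of 2 enzymes within each library (log axis), with MSC-derived libraries in red and endogenous libraries in blue. The groups are apart for 4 of the pairs and overlap for *Fdft1* over *Idi1*, which lies between 0.847 and 0.947 in all 6 libraries.

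Beside the 9 enzymes, 11 others of the route were followed, of which 10 were tested, and 4 of them were lower, 4 higher and 2 not called. For so few genes this is not far from the shares over all genes tested, 30.3% lower and 31.3% higher. These shares also stand beside the edgeR counts of the lists below. The median log2 fold change of the 10 enzymes was 0.08. It turned to -0.08 without endogenous replicate 1 (4 lower and 4 higher, where 38.6% and 37.8% of all genes were called so) and to -0.32 on the TPM scale. It was 0.03, 0.17 and 0.14 without MSC-derived replicate 1, MSC-derived replicate 2 and endogenous replicate 3. *Idi2*, a second isomerase gene, had at most 5 counts in any library and was not tested. *Acat2*, the thiolase of the first step, fell by 1.07 on the log2 scale (SE 0.18, adjusted p = 0.00142), a smaller decrease than that of *Hmgcs1*, which acts after it.

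The mevalonate kinases were not called in edgeR. *Mvk*, the first kinase, had a log2 fold change of -0.03 with a 95% interval from -0.42 to 0.37 (adjusted p = 0.911), and its sign changed to 0.09 when libraries were scaled by their size alone, while on the TPM scale it was called lower at -0.42 (adjusted p = 0.0315 in limma). *Pmvk*, the second, had 0.19 with an interval from -0.10 to 0.47 (adjusted p = 0.298), and -0.21 on the TPM scale, uncalled. With *Hmgcs1* and *Mvd*, these early steps held lower, uncalled and higher genes side by side.

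Past lanosterol the enzymes were again mixed. *Lbr*, which encodes a nuclear envelope protein that binds lamin B and is also a sterol C14 reductase, had 172.7, 181.9 and 177.8 scaled CPM in the MSC-derived and 36.4, 57.1 and 54.9 scaled CPM in the endogenous libraries. It rose by 1.84 on the log2 scale (SE 0.17, adjusted p = 5.31e-05), and *Tm7sf2*, the other C14 reductase, had 0.82 (SE 0.21, adjusted p = 0.0115; 0.0527 with the replicate number as a block). Both genes for the step after *Cyp51* were thus higher while *Cyp51* was lower.

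*Hsd17b7*, a ketosteroid reductase, had a log2 fold change of -2.33 (SE 0.27) and of -2.03 without endogenous replicate 1, its highest library. *Msmo1* and *Sc5d*, which encode a methyl oxidase and a desaturase, had -1.08 and -0.93 (SE 0.13 and 0.15). *Nsdhl* and *Ebp*, a decarboxylating dehydrogenase and a sterol isomerase, were called higher at 0.49 and 0.30 (adjusted p = 0.0397 and 0.0345). They lost the call under several alternatives, and on the TPM scale *Nsdhl* had 0.05 and *Ebp* -0.13.

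Over these and the 9 enzymes together, 11 of 19 tested were lower, 6 higher and 2 not called, with a median of -0.93. Over all genes tested 30.3% were lower and 31.3% higher, so the share of higher enzymes was near that of all genes. On the TPM scale 12 of the enzymes were lower and 3 higher, where 43.2% of all genes were lower and 22.6% higher. Without MSC-derived replicate 1 the higher enzymes numbered 3, where 3684 of 14725 genes tested were higher. Without endogenous replicate 1 the higher enzymes numbered 6, where 37.8% of all genes were higher.

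**Figure D4:**
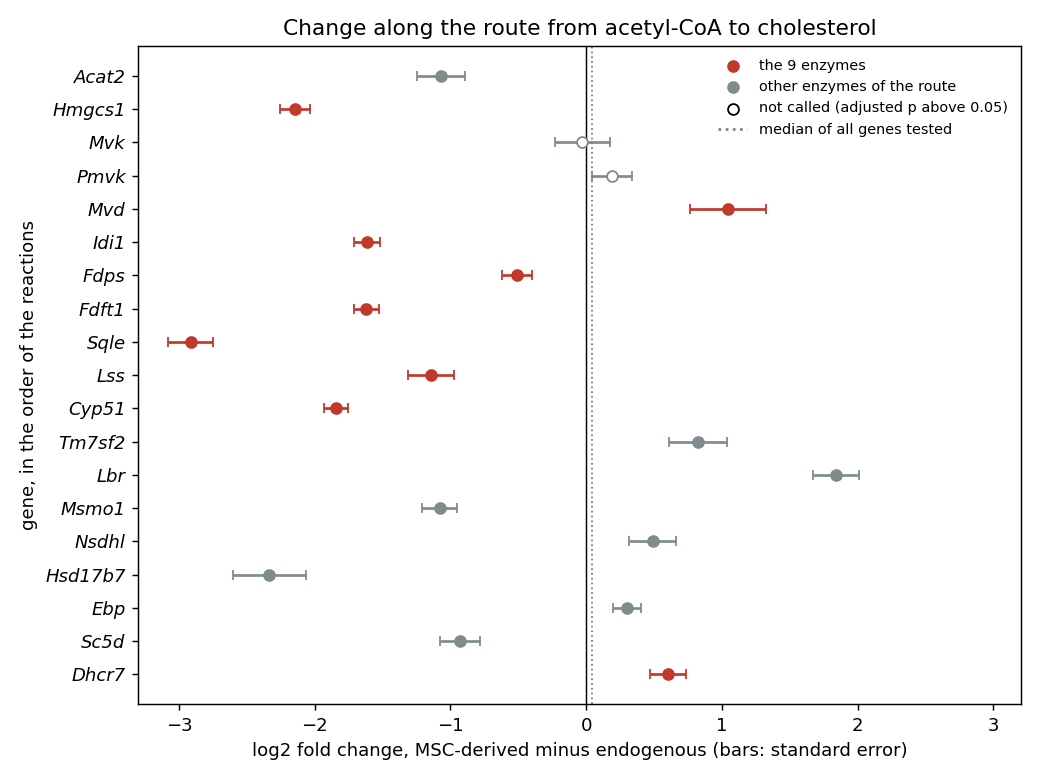
Log2 fold change (MSC-derived minus endogenous, bars for the standard error) of 19 tested enzymes from acetyl-CoA at the top to cholesterol at the bottom, with the 9 enzymes in red, the others in grey and uncalled genes open. The points run from *Sqle* at -2.92 to *Lbr* at 1.84, those from *Idi1* to *Cyp51* all lie left of 0, and the steps before and after them hold points on both sides. The dotted line marks the median of all genes tested at 0.05.

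Farnesyl diphosphate also feeds other isoprenoids, and of 15 genes of these branches 3 were higher, 5 lower and 7 not called, a share of lower genes close to that over all genes tested (30.3%). Their median of -0.17 was between -0.21 and -0.07 when a library was left out, with -0.07 without endogenous replicate 2, -0.11 without MSC-derived replicate 3, -0.10 without endogenous replicate 1, and 0.0016 in limma on log2(FPKM + 1). *Ggps1*, which makes geranylgeranyl diphosphate, had a log2 fold change of -0.77 (SE 0.14), and the farnesyltransferase subunits *Fnta* and *Fntb* had -0.67 and -0.68. Higher were *Rabggta*, a subunit of the transferase that prenylates Rab proteins, at 1.49, *Trit1*, which modifies tRNA, at 1.17, and *Dhdds*, which makes dolichol, at 0.54 (0.08 and not called on the TPM scale). Without endogenous replicate 1, 4 were higher and 7 lower, where 37.8% of all genes were higher and 38.6% lower. On the TPM scale 2 were higher and 9 lower, where 43.2% of all genes were lower.

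Of 15 genes that control SREBP or the turnover of enzymes of the route, 6 were lower, 2 higher and 7 not called. Their median of -0.17 was -0.09 without MSC-derived replicate 1 and 0.05 in limma on log2(FPKM + 1). *Srebf2*, which encodes SREBP2, had 83.7, 79.5 and 82.6 scaled CPM in the MSC-derived and 115.2, 136.3 and 136.6 in the endogenous libraries, a log2 fold change of -0.66 (SE 0.09, adjusted p = 0.000544). Its decrease was smaller than those of *Sqle* and *Hmgcs1*. *Insig1*, itself a known target of SREBP2, had 85.3, 83.6 and 81.7 scaled CPM against 167.7, 183.5 and 183.5, a log2 fold change of -1.09 (SE 0.07).

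*Insig2* had -1.35, and *Mbtps1*, the site-1 protease that makes the first cut in SREBP, -1.57. *Scap* was not called at 0.05 (95% interval -0.40 to 0.49), nor was *Srebf1*, which encodes SREBP1, at -0.06 (95% interval -0.28 to 0.17), although on the TPM scale *Scap* turned negative at -0.34 and *Srebf1* was called at -0.48. *Erlin1* and *Erlin2*, which help to hold SREBP in the endoplasmic reticulum, were higher at 1.28 and 1.21. Without endogenous replicate 1, 3 of the 15 genes were higher and 9 lower (38.6% of all genes were lower in that fit). On the TPM scale 2 were higher and 10 lower, where all genes had shifted down and 43.2% were lower.

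Fatty acid synthesis shares SREBP control, and of its 12 genes 10 were lower, 0 higher and 2 not called in edgeR (median -1.89). At an unadjusted p under 0.05, 11 were lower and 0 higher, but no share over all genes was taken at this looser limit. Over the fits the lower genes numbered 7 to 11 and the higher ones 0. They numbered 7 without MSC-derived replicate 2 and in limma on log2(FPKM + 0.1), where 3761 of 14744 and 3597 of 12730 genes were lower. Without MSC-derived replicate 3 and in limma on log2(FPKM + 1) they numbered 8, where 3768 of 14748 and 3630 of 12730 genes were lower. In DESeq2 they numbered 10, where 29.6% of all genes were lower. They numbered 11 without endogenous replicate 1, with upper quartile scaling and on the TPM scale. There 38.6%, 4650 of 14289 and 43.2% of all genes were lower. In limma with a filter on FPKM or TPM, 11 of the 12 genes were tested. *Scd1*, the stearoyl-CoA desaturase, had 8.41, 10.01 and 9.88 scaled CPM in the MSC-derived libraries and 175.0, 121.6 and 122.9 in the endogenous libraries, a log2 fold change of -3.89 (SE 0.18). *Fads2*, *Elovl6* and *Fasn*, a desaturase, an elongase and fatty acid synthase, had -3.86, -3.12 and -2.09. The decrease of *Scd1* was larger than that of any of the 9 cholesterol enzymes.

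Uptake and release of cholesterol from lysosomes was followed in 15 genes, of which 14 were tested, with 8 higher, 2 lower and 4 not called (median 0.72). The median fell to 0.24 without endogenous replicate 1, to 0.43, 0.46 and 0.43 without MSC-derived replicates 1, 2 and 3, and to 0.40 in DESeq2, fits in which all 15 genes were tested. *Vldlr*, a lipoprotein receptor, had -2.16, and *Stard4*, a sterol carrier, -1.86. Higher were *Lipa*, the lysosomal acid lipase, at 4.41, *Gramd1b*, a carrier from the plasma membrane, at 3.61, and *Npc2*, which hands cholesterol out of lysosomes, at 1.63. Without endogenous replicate 1, 8 of 15 were higher and 5 lower, where 37.8% of all genes were higher and 38.6% lower. On the TPM scale 6 of 13 tested were higher and 5 lower, where 22.6% of all genes were higher and 43.2% lower. *Gramd1a* turned to the other side of 0 on the TPM scale.

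Of 10 genes of efflux and LXR, 6 were higher, 0 lower and 4 not called (median 1.86). At an unadjusted p under 0.05, a looser limit without a share over all genes, 8 were higher and 0 lower. DESeq2 called 8 higher and 0 lower, where it called 28.8% of all genes higher and 29.6% lower. Without endogenous replicate 1 edgeR also called 8 higher and 0 lower, where 37.8% of all genes were higher and 38.6% lower. The export pump genes *Abcg1* and *Abca1* had log2 fold changes of 4.71 (SE 0.11) and 2.03 (SE 0.23), *Nr1h3*, which encodes LXRα, 3.90 (SE 0.34), and *Apoe*, the carrier protein, 2.84 (SE 0.12). On the TPM scale *Lpcat3* turned negative at -0.05 and 1 gene was called lower, as in limma on log2(FPKM + 1) without a filter.

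Of 10 genes of esterification and oxysterols, 3 were higher, 3 lower and 4 not called, close to the shares over all genes tested (31.3% and 30.3%). Their median of 0.31 was 0.09 without endogenous replicate 1, 0.65 without endogenous replicate 3 and 0.63 with the replicate number as a block. Without endogenous replicate 1, 3 were higher and 4 lower, where 37.8% of all genes were higher and 38.6% lower. *Nceh1*, a cholesteryl ester hydrolase, *Cyp27a1*, which makes 27-hydroxycholesterol, and *Soat1*, which esterifies cholesterol, had 3.44, 2.58 and 1.11. *Lcat* and *Cyp7b1* had -3.73 and -2.88 and were low in both groups, with means of 0.334 and 0.367 scaled CPM in the MSC-derived and 4.48 and 2.71 in the endogenous libraries, and *Hsd3b7* had -0.40. *Ch25h*, which makes 25-hydroxycholesterol, was not called at 0.57 (SE 1.08).

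**Figure D5:**
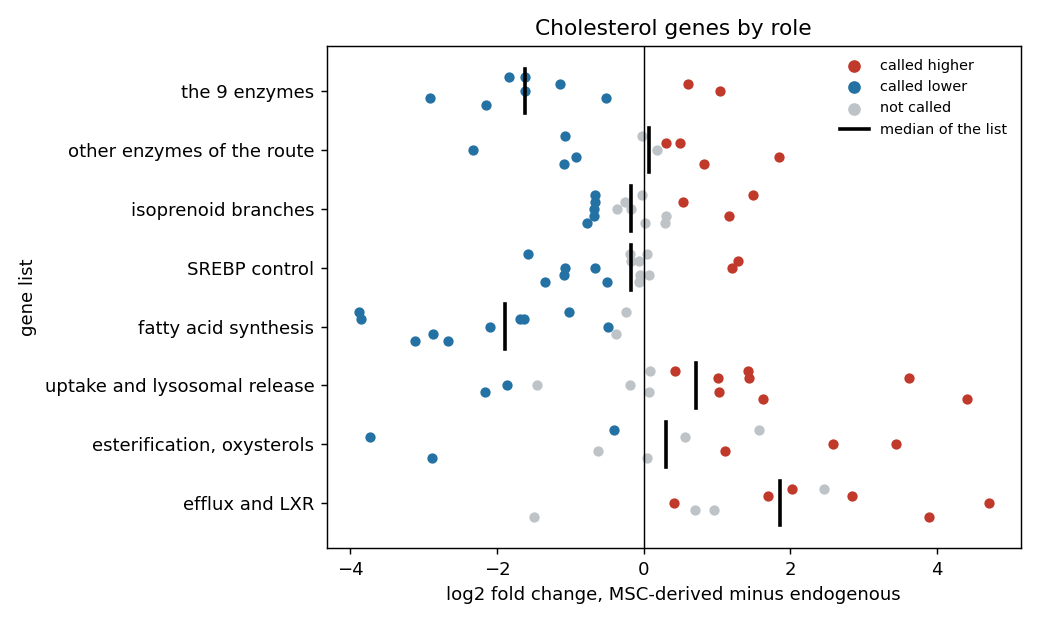
Log2 fold changes (MSC-derived minus endogenous) of the tested genes of 8 lists, each point a gene coloured by its call in edgeR and each black bar the list's median. The medians run from -1.89 for fatty acid synthesis and -1.62 for the 9 enzymes to 1.86 for efflux and LXR.

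Markers of blood cells moved with these results, and their part in the results was not tested. All 8 leukocyte, 10 macrophage, 8 neutrophil and 8 erythroid markers were higher in the MSC-derived libraries. The leukocyte markers summed to 5680 to 5730 scaled CPM in the MSC-derived and 243.0 to 297.5 in the endogenous libraries, the macrophage markers to 12041 to 12279 against 34.1 to 53.4, the neutrophil markers to 44048 to 46112 against 2108 to 3005, and the erythroid markers to 15608 to 15804 against 2581 to 3743. No marker of these lists was at 0 in the MSC-derived libraries, whereas *Timd4* and *Vsig4* of the macrophage list were each at 0 in 1 endogenous library. *Apoe*, *Abcg1*, *Abca1*, *Nr1h3* and *Lipa* are also known to be abundant in macrophages.

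Markers of skeletal cells moved the other way. Beside the 10 chondrocyte markers, all 8 osteoblast markers were lower, with sums of 2423 to 2478 scaled CPM against 79524 to 86364. All 8 proliferation markers were higher, at 599.9 to 607.5 against 205.7 to 243.4. Of 9 fat and stromal markers 8 were tested, with 3 higher, 3 lower and 2 not called and sums of 1205 to 1222 against 866.4 to 986.9.

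Among all other genes tested, those whose centred log2 CPM over the 6 libraries lay closest to the mean profile of the 9 enzymes were *Selenos*, *Adamts10*, *Pura*, *Nfil3* and *Rgcc*, with root mean square differences of 0.02, 0.02, 0.03, 0.04 and 0.04. The enzymes themselves lay farther from their own mean, from 0.16 for *Lss* to 1.14 for *Mvd*. The 5 genes were taken as the nearest of all genes tested, so this difference says nothing about the enzymes. The log2 fold changes of the 5 genes were -1.12 to -1.18, and over 6 libraries in 2 groups the likeness rests mainly on that difference.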

How the data were processed

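The authors sorted Tomato+ cells from cartilage digested with type II collagenase, extracted total RNA with Trizol and made TruSeq libraries. Reads were filtered with SOAPnuke and mapped with HISAT2 and Bowtie2, and RSEM gave the level of each gene. The submitters' processing notes name Bowtie2 2.2.5, RSEM 1.2.12 and the mouse build mm9. The paper gives other versions of both tools and no build, and which versions made the deposited values is not known. The authors deposited for each library the RSEM expected count, FPKM and TPM of each gene, and a signal that is the count times 1 factor per library and served only as a check. The 24 columns of single libraries were mapped by name, and 8 columns of group averages were not used. The table gives no coordinates, and promoter windows came from RefSeq on GRCm38.p6, another build.

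Expected counts were rounded, which changed 20.6% of values, and compared by edgeR 4.0.16 under R 4.3.3 (filterByExpr, TMM, glmQLFit, glmQLFTest) over 14289 genes, with Benjamini-Hochberg adjustment and a threshold of 0.05. The SE is the log2 fold change divided by the square root of F. The script was first tested on simulated data. The 9 enzymes and the other lists were chosen with earlier results of these data known, and some genes of the lists are not reported here. Genes named are the 9 enzymes, other enzymes of the route, a fixed set of pathway genes, the 3 largest called changes in each direction per list, and the 5 genes nearest to the mean profile. *Col2a1*, *Timd4*, *Vsig4*, *Ctsb*, *Gramd1a* and *Lpcat3* were named after their values were seen. Alternatives were DESeq2 1.42.0, 4 other scalings, 2 filters, each library left out, a replicate block, 2 stricter thresholds, and limma 3.58.1 on FPKM and, chosen after the data were seen, on TPM. P-values test the difference between the groups, judged against the spread between the 3 libraries of each group. Whether a library came from a separate mouse or from a pool is not stated. Figures were drawn with matplotlib 3.10.9.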

Additional observations from a re-analysis of the deposited data

How the results depend on the processing

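The 9 enzymes kept their direction in all 162 values of the 18 alternatives with a fit of their own, with 2 calls lost, and the 2 stricter thresholds, which repeat the fold changes, left 5 further calls out. The number of the 9 called higher, 2 in edgeR, was 1 in limma on log2(TPM + 1), 1 where the log2 fold change had to reach 1 in size and 0 at an adjusted p of 0.001 or less, and 1 to 2 when a library was left out (1 without MSC-derived replicate 1). The number of the 19 route enzymes called higher, 6 in edgeR, was 3, 2 and 1 under the same settings, 3 to 6 when a library was left out (3 without MSC-derived replicate 1), and 3 with the replicate number as a block, where *Tm7sf2*, *Nsdhl* and *Ebp* lost their calls. The block changed no call of the 9. The replicate numbers were read as names only, so the main fit did not take them as pairs. Same-numbered libraries deviated together hardly at all (correlations 0.0129, 0.00221 and 0.0178), although each was best with its own number. Over all genes 2134 were higher and 2380 lower at 0.001, and 2756 were higher with the fold limit. *Mvk*, uncalled in edgeR at -0.03, was 0.0880 with library size alone, 0.0790 in limma on log2(FPKM + 1) with and without a filter, 0.0900 on log2(FPKM + 0.1), and -0.18 to 0.10 when a library was left out, and it was called at -0.42 (adjusted p = 0.0315) on log2(TPM + 1). On log2(TPM + 1) *Pmvk* and *Ebp* turned to -0.21 and -0.13. Library size alone moved the median of all genes by 0.12. The causes were not tested.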
